A study of Nicotiana tabacum with 9 samples.

Results

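Gene expression in young leaves of *Nicotiana tabacum*, the cultivated tobacco, was compared between the lines M21 and G27, with 3 RNA-seq libraries of each. Sampling fell in the squaring period, in which flower buds appear, and the 3 libraries of NC82, a flue-cured cultivar name, served as a level beside both lines. The labels give M21, G27 and NC82 as genotypes, with no treatment, plant age or description of the genetic change, and the study concerned NtAN3 and leaf size. What each line carries at NtAN3, and whether the libraries of a line came from separate plants, clones or pools, is not stated, so p-values measure the spread between these samples. Of the 69500 genes in the deposited table, 32529 had a value of 1 or more in at least 3 of the 6 M21 and G27 libraries and were tested. A further 16069 genes were above 0 in some of the 6 libraries and were not tested, and 20902 were listed at 0 in all 6.

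AN3 belongs to the SS18 family of transcriptional co-activators. In Arabidopsis it binds growth-regulating factors (GRFs), DNA-binding proteins with a QLQ and a WRC domain, and recruits chromatin remodelling complexes of the SWI/SNF type to their targets. The pair keeps cells of the leaf primordium dividing, and plants without AN3 make narrow leaves with fewer cells. Tobacco is an allotetraploid, so most genes exist as close copies, and how reads were divided between such copies is not known.

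Levels below are the authors' normalized values. Differences are M21 minus G27 on the log2(value + 1) scale with limma's standard error and Benjamini-Hochberg adjusted p, and genes with an adjusted p under 0.05 are those called. The first principal component of the 6 libraries, with 47.6% of the variance, separated the lines. The second, with 20.5%, set M21 replicate 3 and G27 replicate 1 on one side and M21 replicate 2 and G27 replicate 2 on the other. The tissue label matched the photosynthesis genes, since chlorophyll a/b binding proteins held 4.3% to 5.23% of each of the 9 library sums and photosystem subunits 6.98% to 7.91%.

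M21 and G27 differed in 3331 genes, 10.2% of those tested. Of these, 1521 were higher in M21 (4.68% of tested genes) and 1810 were lower (5.56%). Most differences were small: the median was 0.51 among genes called higher and -0.50 among genes called lower, against -0.009 over all tested genes. A difference of 1 or more, a doubling at high levels, was reached by 245 called genes (0.753%), 110 higher (0.338%) and 135 lower (0.415%). The values of the lines did not overlap at 9338 genes (28.7%), and at 3329 of the 3331 called genes. Without M21 replicate 1 the number called was 1611, without G27 replicate 3 it was 1978, and without both M21 replicate 3 and G27 replicate 1 it was 2402.

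**Figure D1:**
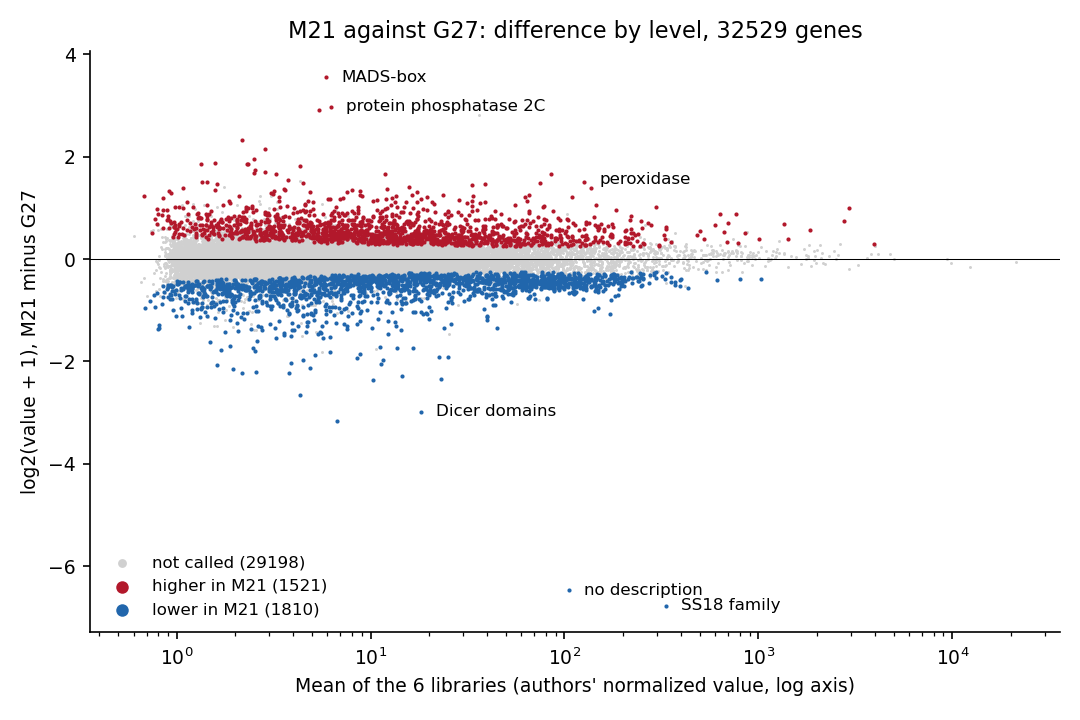
Difference between M21 and G27, as log2(value + 1), against the mean value of the 6 libraries on a log axis, with 1 point per tested gene (32529). The 1521 genes called higher in M21 and the 1810 called lower lie mostly within 1 of zero, and an SS18 family gene and a gene with no description stand alone near -6.78 and -6.47.

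The largest difference among the tested genes was in the SS18 family itself. The SS18 gene Nitab4.5_0007901g0050 stood at 760.1, 604 and 621 in G27 and at 5.0, 5.8 and 4.32 in M21, while the NC82 libraries gave 0.34, 0.25 and 0.25. The 3 genotypes did not overlap, with G27 far above M21 and M21 above NC82. The difference was -6.78 ± 0.11 (SE, adjusted p = 5.8e-09), and the mean of G27 was 131 times that of M21. In bulk tissue, a gene used in fewer cells and a gene with less RNA per cell cannot be told apart.

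The other SS18 genes differed little. Nitab4.5_0001993g0030 gave 6.66, 6.82 and 6.38 in M21 and 8.33, 8.94 and 8.98 in G27. Every M21 library was below every G27 library, by -0.36 ± 0.08 (adjusted p = 0.026), a call that was lost when any 1 of 4 libraries was left out (M21 replicate 1 or 3, G27 replicate 2 or 3, adjusted p up to 0.098). Of the remaining SS18 genes, Nitab4.5_0000319g0250 ranged over 20.8 to 26.8 in M21 and 23.7 to 26.1 in G27 (adjusted p = 0.5), and Nitab4.5_0000768g0010 lay between 1.12 and 1.57 in both lines. The last 2 of the 6 family members stayed at 0.29 or less in all 9 libraries and were not tested.

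Among the GRFs, the DNA-binding partners of AN3, 8 of 25 genes could be tested and 1 was called. Nitab4.5_0005167g0090 gave 0.34, 0.22 and 0.85 in M21 and 2.08, 2.33 and 2.10 in G27, with 0.65, 0.34 and 0.45 in NC82. G27 alone was above 1, so the gene passed the filter only through its G27 values. The difference of -1.13 ± 0.16 was called (adjusted p = 0.003) under every alternative that tested the gene. The same order of the lines was seen at Nitab4.5_0004686g0010, with 0.90, 1.15 and 0.88 in M21 and 1.81, 1.64 and 1.36 in G27, but its difference of -0.40 was not called (adjusted p = 0.07, and 0.046 without the mean trend). The GRF gene Nitab4.5_0001033g0050 gave 9.76, 8.80 and 12.3 in M21 and 8.37, 6.52 and 6.93 in G27. Its lines did not overlap and its difference of 0.44 was not called (adjusted p = 0.063), although 5 alternatives, with adjusted p between 0.031 and 0.045, did call it. The other 5 tested GRFs had limma adjusted p-values of 0.14 to 0.92. The filter left out GRFs that separated the lines in either direction. Nitab4.5_0027751g0010 gave 1.49, 0.89 and 1.62 in M21 and 0.25, 0.84 and 0.52 in G27. Nitab4.5_0004320g0010 gave 0.15, 0.1 and 0.33 in M21 and 0.73, 0.54 and 0.73 in G27 (both named after their values were seen). Limma called none of 58 tested SNF2-related helicases, the motor subunits of remodelling complexes (1 at an unadjusted p under 0.05).

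Apart from the SS18 gene, a few genes were present in nearly one line alone. Nitab4.5_0000930g0090, with no description, stood at 230.5, 193 and 204 in G27 and at 0.74, 2.27 and 1.33 in M21, close to the 1.18 to 1.5 of NC82 (difference -6.47 ± 0.19, adjusted p = 3.9e-07). The MADS-box gene Nitab4.5_0001339g0170, of a family of developmental transcription factors, gave 12.3, 11.9 and 10.9 in M21, against 0.10, 0 and 0.15 in G27 and 0.07 to 0.15 in NC82. It was the gene with the largest difference in the direction of M21, 3.55 ± 0.10 (adjusted p = 3.9e-07), and it passed the filter through its M21 values alone.

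A protein phosphatase 2C gene, Nitab4.5_0000072g0070, came next, with 12.0, 10.6 and 13.1 in M21 and 0.78, 0.61 and 0.51 in G27 (difference 2.98, adjusted p = 3.2e-06). Phosphatases of this class remove phosphate from signalling proteins, abscisic acid signalling included. Other genes at the M21 end were Nitab4.5_0003815g0120 with a GRF-type zinc finger, a domain unrelated to the growth-regulating factors (3.92 to 4.75 in M21, at most 0.15 in G27), and the transposase-related Nitab4.5_0002137g0170 (2.11 to 3.79 against at most 0.22). Nitab4.5_0001653g0060, with no description, was listed at 0 in every G27 library, at 1.81 to 3.41 in M21 and at 2.84 to 5.33 in NC82. At the phosphatase, zinc finger and transposase-related genes NC82 sided with G27, and at the last with M21. All of these genes passed the filter through their M21 values alone.

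The rest of the 10 largest differences higher in M21 held several genes with wide spread. Nitab4.5_0011666g0030, with no description, gave 7.79, 12.8 and 9.75 in M21 and 0, 0 and 2.1 in G27 (2.91 ± 0.39, adjusted p = 0.0023). Nitab4.5_0001027g0050, also undescribed, gave 2.24, 8.41 and 5.26 against 0, 0 and 1.17, and the auxin-induced ARG7-like gene Nitab4.5_0001438g0080 gave 3.1, 6.79 and 2.63 against 0, 1.46 and 0. In these 3 genes the lines did not overlap, but a G27 library was above 1. Tighter values were seen at Nitab4.5_0002295g0010, with CBS and DUF21 domains, at 4.33, 4.87 and 4.54 against 0.52, 0.47 and 0.36. A gamma-tubulin complex gene, Nitab4.5_0000615g0100, whose family nucleates microtubules, gave 2.73, 5.12 and 4.76 in M21, 0.18 to 0.53 in G27 and 1.83 to 2.08 in NC82. Both the CBS domain gene and the gamma-tubulin complex gene passed the filter through their M21 values alone.

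At the lower end, the ribosomal L10/L12 gene Nitab4.5_0004967g0010 gave 0.88, 0.2 and 0.24 in M21 and 7.66, 11.5 and 5.45 in G27 (-2.65 ± 0.24, adjusted p = 0.00048), with NC82 at 0.06 to 0.41. The DUF642 gene Nitab4.5_0000620g0120 gave 0.67, 0.17 and 0.94 in M21 against 10.97, 6.92 and 3.13 in G27, where the G27 libraries lay far apart and NC82 (3.96 to 5.07) fell among them. Both genes passed the filter through their G27 values alone.

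**Figure D2:**
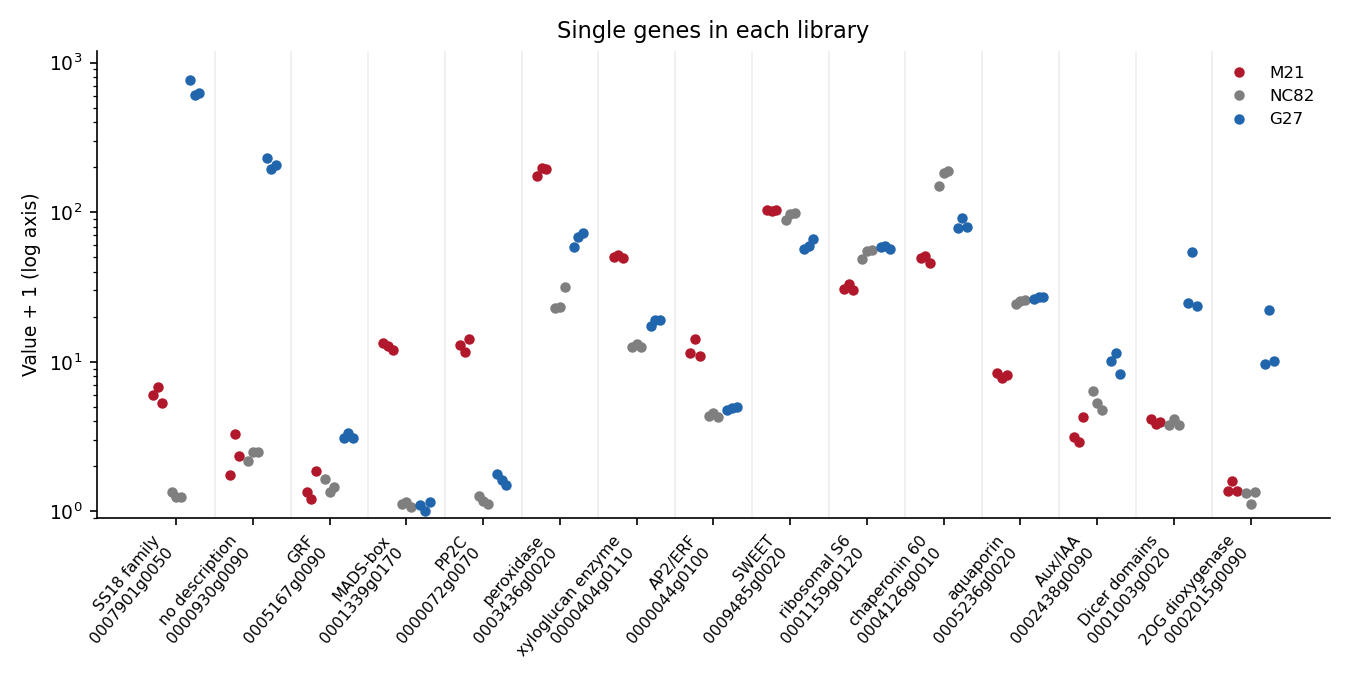
Value + 1 on a log axis for 15 genes in each of the 9 libraries, with 1 point per library and colours for M21, NC82 and G27. The SS18 gene is high in G27 alone, the MADS-box and protein phosphatase 2C genes in M21 alone, and at the Dicer and dioxygenase genes G27 replicate 2 lies above the other G27 libraries.

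Among the groups described, ribosomal proteins, the building blocks of the protein synthesis machinery, had the most called genes, and nearly all were lower in M21. Among the eukaryotic-type ribosomal proteins, 188 of 262 tested genes were lower in M21 and 0 higher, with a median difference of -0.43. Of 498 other ribosomal protein genes, which include those of the plastid and mitochondrial ribosome, 224 were lower and 2 higher (median -0.27). This list was not split by compartment, so its counts do not give the share called for organelle ribosomes. The genes of both lists together made up 22.8% of all genes called lower. Summed, the eukaryotic-type genes took 2.27%, 2.18% and 2.47% of the library sum in M21 and 3.41%, 2.96% and 3.11% in G27. NC82, at 3.16%, 2.73% and 2.76%, overlapped G27 and lay above every M21 library. Leaving out 1 library at a time gave 112 to 186 lower genes in the first list and 131 to 217 in the second, fewest without M21 replicate 1 in both, and under all 15 alternatives the medians stayed between -0.47 and -0.38 and between -0.31 and -0.25.

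At the most significant ribosomal genes of the eukaryotic type the differences were under 1 and the replicates close together. Nitab4.5_0001159g0120, for ribosomal protein S6 of the small subunit, gave 29.9, 32.2 and 28.98 in M21 and 57.1, 58.6 and 56.2 in G27. That made -0.90 ± 0.07 (adjusted p = 0.00031), with NC82 at 47.4, 53.8 and 54.5 just under G27. A second S6 gene, Nitab4.5_0001327g0070, differed by -0.73, an L24-related gene, Nitab4.5_0000132g0300, by -0.76 and an S17 gene, Nitab4.5_0010633g0040, by -0.79 (adjusted p = 0.00048 to 0.0007). These last 3 followed as the next by p-value and were named after their values were seen.

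Small and large subunits differed alike in direction. By the protein name in the description, 97 of 184 genes of the small subunit (52.7%, median -0.35) and 134 of 315 genes of the large subunit (42.5%, median -0.28) were lower in M21. Of 50 protein names with at least 5 tested genes, 48 had a median below 0. All tested genes were called lower for S4 of the eukaryotic type (8 of 8), S10, L19, L21 of the eukaryotic type, the L22/L17 family (6 of 6 each) and L28 of the eukaryotic type (5 of 5). For L22 of the eukaryotic type, 3 of 7 were called. Few genes were lower for L17 and L27 (1 of 6 each) and L7/L12 (3 of 14, with 2 higher). The 9 names with no gene called were S30, S14, L21, L25, L9, L18/L5, L30, S21 and L33, with medians from -0.29 (S30) to 0.03 (L33).

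Ribosomal genes were also set against other genes of the same level. Calls became more frequent with level, from 6.2% at a mean of 2 to 5 to 30.0% at 100 or more, where replicates were tighter. At levels of 50 to 100, 153 of 183 ribosomal genes (83.6%) were lower in M21, against 8.64% of 1100 other genes. At 100 or more these shares were 69.0% and 7.39%, and below 10 the ribosomal share was 6.17% to 8.51% against 3.27% to 4.21%.

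**Figure D3:**
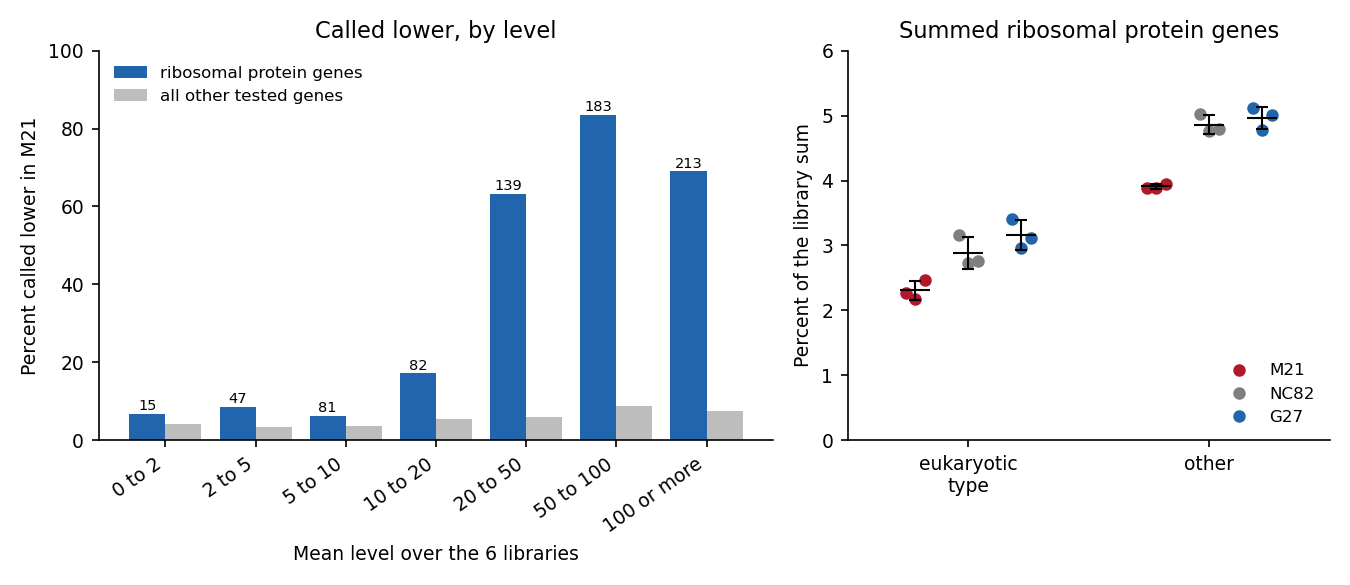
Left, the percent of ribosomal protein genes (blue, tested number above each bar) and of all other tested genes (grey) called lower in M21, by mean level. Right, the summed ribosomal protein genes as a percent of the library sum in each library (points), with mean and SD of 3 libraries; M21 lies below G27 and NC82 in both lists.

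In other parts of the protein synthesis machinery the called genes were nearly all lower in M21, although most genes were not called. Of 163 genes for ribosome assembly and nucleolar proteins 35 were lower and 0 higher (median -0.20), and 15 of 129 when 34 genes shared with the ribosomal lists were left out (median -0.18). Of 221 translation factor genes 43 were lower and 1 higher (median -0.15). A gene with the EF-Tu and EF1A domain, Nitab4.5_0001830g0010, which delivers aminoacyl-tRNA to the ribosome, gave 77.1, 74.6 and 69.98 in M21 and 112, 119 and 100.4 in G27 (-0.57, adjusted p = 0.0031, named after its values were seen). Of 112 aminoacyl-tRNA synthetase genes 11 were lower and 0 higher (9.82% called, median -0.19). Without 1 library these counts fell to as few as 19, 19 and 1, the first 2 without M21 replicate 1 and the last without M21 replicate 3. Proteasome subunits, which break proteins down, had 2 of 82 genes called, both lower (2.44%, below the 10.2% over all tested genes, median -0.10).

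Chaperones split by class. All 13 called genes of 51 chaperonins, the ring-shaped folding machines of plastid, mitochondrion and cytosol, were lower in M21 (median -0.28), as were 13 of 34 HSP70 genes (median -0.29) and 8 of 15 HSP90 genes (median -0.37). The chaperonin 60 gene Nitab4.5_0004126g0010 gave 48.8, 50.2 and 45.1 in M21 and 77.4, 89.8 and 78.7 in G27, both under the 148, 180.5 and 188 of NC82 (-0.76 ± 0.08, adjusted p = 0.00097). The HSP70 gene Nitab4.5_0009884g0020 gave 107, 97.6 and 94.1 in M21 and 175, 249 and 168 in G27 (-0.96 ± 0.14, adjusted p = 0.0031). Here NC82, at 91.2 to 113, sat with M21.

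The counts of the HSP classes rested on all libraries being present. They fell to as few as 4 for HSP70 (without M21 replicate 1) and 1 for HSP90 (without M21 replicate 2), and to 8 for the chaperonins (without M21 replicate 1). The medians held between -0.34 and -0.20, -0.44 and -0.31, and -0.32 and -0.24 over the alternatives.

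DnaJ proteins, the co-chaperones of HSP70, went the other way, with 23 of 219 genes higher in M21 and 2 lower, while their median was 0.03. Nitab4.5_0006920g0050 gave 24.7, 21.7 and 23.99 in M21 and 12.4, 12.2 and 11.01 in G27 (0.92, adjusted p = 0.00049). Among small heat shock proteins 7 of 46 were higher and 3 lower. The most significant, Nitab4.5_0003133g0060, stood at 160, 172 and 149 in M21, above the 96.5 to 101.2 of G27 and the 69.9 to 75.6 of NC82 (0.69, adjusted p = 0.00095). Without M21 replicate 1, 13 DnaJ genes were called higher, and without G27 replicate 3, 14.

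The genes that run the cell cycle differed at few members. Of 80 DNA replication genes 5 were lower in M21 and 0 higher, 6.25% against the 5.56% over all tested genes, and no more than 2 were called with any 1 library left out. They were 2 genes for PCNA, the sliding clamp of DNA polymerase, 2 for MCM helicase subunits and 1 for ribonucleotide reductase, named after their values were seen, and at 4 of the 5 the mean of NC82 was below both lines. The PCNA gene Nitab4.5_0000744g0120 gave 13.9, 14.95 and 14.9 in M21 and 18.8, 22.3 and 18.8 in G27 (-0.43, adjusted p = 0.016, and 0.081 without M21 replicate 1). Histones had 3 of 112 genes lower, kinesins 2 of 57 and tubulins 7 of 50, with none higher with all libraries in the fit. Only the tubulin share was above the 5.56% over all tested genes. No histone was lower without M21 replicate 1, and without M21 replicate 3 the lower tubulins numbered 4. Without G27 replicate 1 limma called 2 kinesins and 1 tubulin higher, and without G27 replicate 2 it called 2 histones higher. Both kinesins and tubulins also had genes called higher without M21 replicate 2.

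Cyclins, which time the cycle by activating kinases, had 5 of 42 genes lower and 1 higher. Nitab4.5_0006058g0010 gave 1.07, 1.11 and 1.26 in M21 and 3.72, 2.96 and 3.67 in G27, where NC82 (3.02 to 3.83) sat with G27 (-1.05 ± 0.11, adjusted p = 0.00096). The cyclin higher in M21, Nitab4.5_0011267g0010, gave 39.7, 41.2 and 44.1 against 32.2, 30.9 and 28.6 (0.44, adjusted p = 0.0079). All 5 lower cyclins had line means under 5. With a minimum value of 5 no cyclin was called lower, but that filter can leave out genes of this level before the test, so it is no check of these calls.

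**Figure D4:**
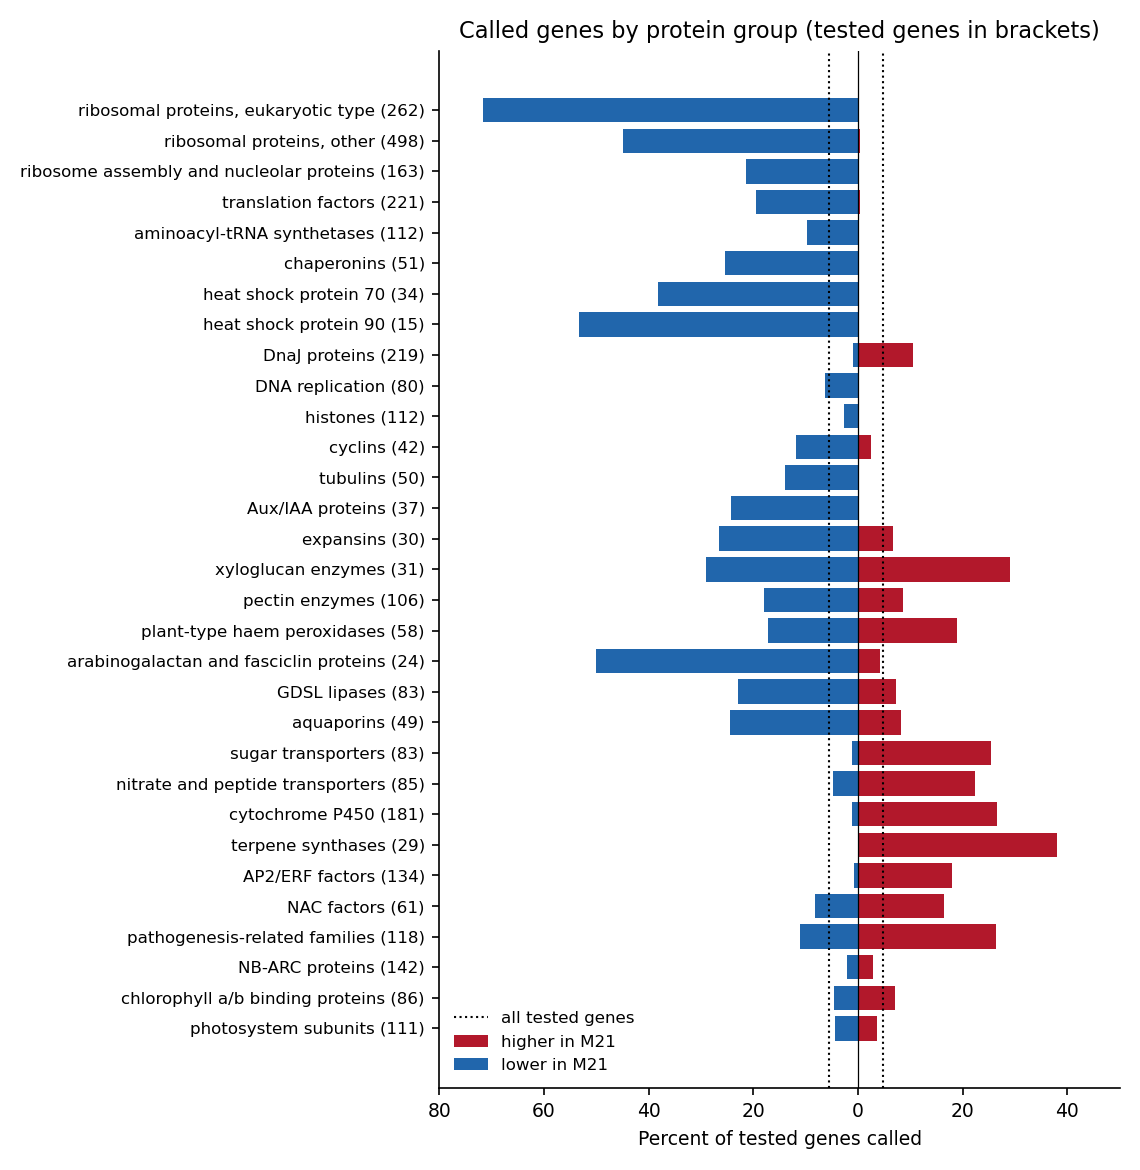
Percent of the tested genes of 31 protein groups called lower in M21 (left, blue) or higher in M21 (right, red), with the number tested in brackets and the shares over all tested genes as dotted lines (5.56% and 4.68%). Bars for ribosomal proteins and HSP classes run to the left, those for cytochrome P450 enzymes, terpene synthases, sugar transporters and AP2/ERF factors to the right, and the xyloglucan enzymes go both ways.

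Aux/IAA proteins, the repressors that auxin removes and whose genes auxin in turn induces, were lower in M21 at 9 of 37 genes and higher at 0 (median -0.20). Nitab4.5_0002438g0090 gave 2.16, 1.89 and 3.25 in M21, 9.07, 10.4 and 7.30 in G27 and 3.77 to 5.41 in NC82, so that NC82 lay between the lines (-1.54 ± 0.16, adjusted p = 0.00092). The lower Aux/IAA genes numbered 3 without M21 replicate 1, 4 without M21 replicate 2, 5 without M21 replicate 3 and 6 without G27 replicate 2. Of 40 auxin response factors, the DNA-binding partners of these repressors, 1 was called, higher in M21 (2.5%, below the 10.2% over all tested genes). Of 13 GH3 genes, for enzymes that conjugate auxin, 3 were higher and 0 lower, and without M21 replicate 1 or M21 replicate 2 no GH3 gene was called.

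In some transcription factor families more genes were called higher in M21 than lower. AP2/ERF factors, among them regulators of ethylene and stress responses, had 24 of 134 genes higher in M21 and 1 lower (median 0.14), and 16 to 24 higher when 1 library was left out. Nitab4.5_0000044g0100 gave 10.4, 13.2 and 9.91 in M21 against 3.79, 3.91 and 3.98 in G27, with NC82 at 3.29 to 3.57 (1.31 ± 0.11, adjusted p = 0.00044). NAC factors had 10 of 61 genes higher and 5 lower, with 5 higher without M21 replicate 1 or M21 replicate 3, and 1 lower without M21 replicate 1 or M21 replicate 2. MYB and SANT proteins had 19 of 261 genes higher and 4 lower, a total share of 8.81%, below the 10.2% over all tested genes, and 8, 10 and 9 were higher without M21 replicate 1, M21 replicate 3 and G27 replicate 3.

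Other families were called about as often as all tested genes (10.2%), some with more genes lower than higher. TCP, SBP-box and YABBY factors, which shape leaf growth and phase, had 2 of 81 genes higher and 7 lower (11.1% called). The SBP-box gene Nitab4.5_0001538g0080 gave 11.5, 9.76 and 10.99 in M21 and 24.8, 22.6 and 21.7 in G27 (-1.03 ± 0.09, adjusted p = 0.00044), with NC82 at 18.2 to 21.1. Without M21 replicate 2 the lower genes of this list numbered 4, and without M21 replicate 3 or G27 replicate 3 the higher ones 0. Dof and GATA factors had 1 of 75 higher and 7 lower (10.7% called), and 1 lower without M21 replicate 1. WRKY factors, regulators of defence, had 5 of 87 higher and 4 lower (10.3% called, close to all tested genes), and 2 higher without M21 replicate 3 or G27 replicate 3.

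Cell wall genes changed in both directions. The 31 xyloglucan enzymes, which cut and rejoin the xyloglucan that tethers cellulose, had 9 genes higher and 9 lower in M21, and 7 to 9 and 8 to 10 when 1 library was left out. Nitab4.5_0000404g0110 gave 49.5, 50.4 and 48.4 in M21 against 16.3, 18.0 and 17.9 in G27 and 11.5 to 12.2 in NC82 (1.46 ± 0.07, adjusted p = 2e-05). Nitab4.5_0002613g0030 gave 9.66, 10.5 and 9.78 against 20.2, 18.98 and 18.3 (-0.88 ± 0.08, adjusted p = 0.00048). Each gene separated the lines without overlap, and the family median was -0.08.

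Expansins, which loosen walls during cell expansion, had 8 of 30 genes lower in M21 and 2 higher (median -0.14). Nitab4.5_0001326g0130 gave 3.25, 3.04 and 3.19 in M21 against 6.59, 5.78 and 6.04 in G27 (-0.78, adjusted p = 0.0014), and the opposite was seen at Nitab4.5_0002055g0020, with 17.9, 16.04 and 16.7 against 8.45, 10.7 and 9.77 (0.75, adjusted p = 0.002). Arabinogalactan and fasciclin proteins, glycoproteins of the wall and cell surface, had 12 of 24 genes lower and 1 higher (median -0.32), and 6 lower without M21 replicate 1. Laccases and other multicopper oxidases had 7 of 35 lower and 0 higher (median -0.29).

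Pectin enzymes and their inhibitors had 19 of 106 genes lower and 9 higher, plant-type haem peroxidases, ascorbate peroxidases included, 10 of 58 lower and 11 higher. Without M21 replicate 1, 10 pectin genes were lower and 6 peroxidases higher, as were 6 without M21 replicate 2 or G27 replicate 3. The peroxidase Nitab4.5_0003436g0020 stood at 172, 197 and 195 in M21, 57.9, 67.4 and 71.5 in G27 and 21.7 to 30.7 in NC82, so that the 3 genotypes formed separate steps (1.51 ± 0.09, adjusted p = 8.5e-05). Genes of one scaffold could differ in direction: of its pectinesterase inhibitor genes, Nitab4.5_0001780g0010 was higher in M21 (1.14, adjusted p = 0.00044) and Nitab4.5_0001780g0050 lower (-0.88, adjusted p = 0.0035, named after its values were seen).

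Among 2 families with members that build the leaf surface, more genes were called lower than higher in M21, and most were not called. GDSL lipases, a family that includes cutin-forming enzymes, had 19 of 83 genes lower and 6 higher, and 12 lower and 3 higher without M21 replicate 1. Nitab4.5_0001498g0010 gave 1.05, 1.28 and 1.36 in M21, 6.89, 8.96 and 7.44 in G27 and 6.90 to 8.16 in NC82 (-1.97 ± 0.12, adjusted p = 6.6e-05). Lipid transfer proteins had 13 of 77 lower and 6 higher. Nitab4.5_0012046g0010 gave 118, 115 and 99.5 in M21 against 221, 246 and 233 in G27, and NC82 (234 to 252) sat with G27 (-1.07, adjusted p = 0.00029). Without G27 replicate 3 the lipid transfer counts were 8 lower and 2 higher.

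Transport genes divided by substrate. Aquaporins, the water channels, had 12 of 49 genes lower in M21 and 4 higher, and 10 to 13 lower without 1 library. Nitab4.5_0005236g0020 gave 7.37, 6.76 and 7.18 in M21 against 25.2, 26.2 and 26.2 in G27 and 23.5 to 25.0 in NC82 (-1.73 ± 0.08, adjusted p = 9.6e-06). Nitab4.5_0007733g0020 went the other way, with 29.1, 29.5 and 28.4 against 12.3, 13.4 and 14.3 (1.07, adjusted p = 0.00023).

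Sugar transporters were higher in M21 at 21 of 83 genes and lower at 1 (median 0.17), and at 10 without M21 replicate 1. Of these, 10 were among the 25 tested SWEET genes, which export sugars from cells (10 higher, 1 lower, median 0.37). Nitab4.5_0009485g0020 gave 102, 100.8 and 102 in M21, 55.5, 58.9 and 65.6 in G27 and 88.1 to 98.2 in NC82 (0.75 ± 0.08, adjusted p = 0.00078). At all 10 higher SWEET genes the NC82 mean was nearer to M21 than to G27, or beyond M21. Transporters for nitrate, ammonium and peptides had 19 of 85 genes higher and 4 lower (median 0.19), and 7 higher without M21 replicate 1, and Nitab4.5_0000312g0370 gave 20.03, 19.9 and 18.0 against 7.34, 8.37 and 7.32 (1.23, adjusted p = 0.0002).

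In specialised metabolism, 2 enzyme families had nearly all their called genes higher in M21 and others divided. Cytochrome P450 enzymes, which oxidise hormones and defence compounds, had 48 of 181 genes higher in M21 and 2 lower (median 0.21), and 30 to 47 higher without 1 library, fewest without M21 replicate 1. Nitab4.5_0002436g0020 gave 28.6, 28.8 and 29.7 in M21 and 18.5, 17.5 and 18.2 in G27 (0.66, adjusted p = 0.00095), with NC82 at 20.9 to 21.3. Terpene synthases had 11 of 29 genes higher and 0 lower (median 0.19). The one with the smallest p, Nitab4.5_0002556g0060, gave 3.02, 2.89 and 3.00 against 1.27, 1.31 and 1.10 (0.84, adjusted p = 0.0015). UDP-glycosyltransferases had 16 of 106 higher and 6 lower, and 10 higher without M21 replicate 1 or G27 replicate 3. Acyltransferases of the BAHD type divided, with 8 of 58 higher and 6 lower (median -0.01), and 4 higher without M21 replicate 1, M21 replicate 2 or G27 replicate 3. Glutathione S-transferases divided, with 10 of 87 higher and 13 lower, and 6 of each without M21 replicate 1.

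Defence proteins formed a mixed group. Of 118 genes of pathogenesis-related families 31 were higher in M21 and 13 lower (median 0.16), and 18 to 32 higher without 1 library, fewest without M21 replicate 1. The Bet v I and major latex protein gene Nitab4.5_0022495g0010 gave 16.2, 20.2 and 18.9 in M21 and 6.31, 4.44 and 4.78 in G27 (1.66 ± 0.13, adjusted p = 0.00027), with NC82 between them at 12.1 to 14.6. The thaumatin gene Nitab4.5_0003968g0040 gave 1.2, 1.78 and 1.15 against 4.58, 5.38 and 4.11 (-1.26, adjusted p = 0.00095). Summed, these families took 0.91% to 0.994% of the library in M21, 0.712% to 0.878% in G27 and 0.388% to 0.418% in NC82. NB-ARC proteins, the intracellular immune receptors, had 4 of 142 genes higher and 3 lower, and 1 and 0 without M21 replicate 1. Their share called, 4.93%, was below the 10.2% over all tested genes.

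By subfamily, chitinases, which break fungal walls, had 8 of 22 genes higher and 0 lower, and proteinase inhibitors 8 of 28 higher and 0 lower. Thaumatins had 3 of 23 higher and 6 lower. Without M21 replicate 1 the higher genes numbered 5, 5 and 1, and 5 chitinases were also higher without M21 replicate 2 or G27 replicate 1. Summed, chitinases took 0.187% to 0.2% of the library in M21 and 0.155% to 0.205% in G27, so the lines overlapped. The sums of proteinase inhibitors and of thaumatins were higher in every M21 library than in any G27 library. The potato inhibitor I gene Nitab4.5_0003154g0030 gave 60.2, 43.9 and 69.7 in M21, 20.1, 18.5 and 21.3 in G27 and 7.85 to 9.93 in NC82, which put the 3 genotypes apart (1.47 ± 0.15, adjusted p = 0.0007). This split and this gene were chosen after their values were seen.

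A set of genes was defined by the lead of G27 replicate 2, so this lead and the high G27 level are part of its definition. How often replicate 2 led over all tested genes was not counted. Of the 135 genes lower in M21 by 1 or more, 21 had G27 replicate 2 at least 1.5 times above the next G27 library, against 6 led in this way by replicate 1 and 2 by replicate 3. A pair of genes with Dicer domains, for the enzymes that cut double-stranded RNA into small RNAs, belonged to this set of 21. Nitab4.5_0001003g0020 gave 23.7, 53.3 and 22.7 in G27, 2.87 to 3.18 in M21 and 2.78 to 3.18 in NC82 (-2.98 ± 0.27, adjusted p = 0.00047). Nitab4.5_0019786g0010 gave 31.7, 59.1 and 28.0 in G27 and 5.66 to 7.72 in M21 (-2.35, adjusted p = 0.00071). In both, every G27 library was above every library of M21 and NC82.

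The set also held the 2-oxoglutarate dioxygenases Nitab4.5_0002015g0090 (8.61, 21.3 and 9.12 in G27, against 0.37 to 0.59 in M21) and Nitab4.5_0004862g0060 (3.32, 6.56 and 2.94, against at most 0.12). Both dioxygenases passed the filter through their G27 values alone. A glutathione S-transferase, Nitab4.5_0000641g0050, gave 17.5, 38.8 and 18.6 in G27 and 3.65 to 4.28 in M21. Without G27 replicate 2, 18 of the 21 genes were still called, and the first Dicer gene differed by -2.59 (adjusted p = 3.3e-05). Over the whole small RNA list, with Argonaute proteins, 6 of 36 genes were lower in M21 and 0 higher, and 2 were without M21 replicate 1, M21 replicate 2 or G27 replicate 2.

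NC82 was closer to G27 than to M21 at most called genes. Of the 3331 called genes, the NC82 mean lay between the lines and nearer to G27 at 37.9%, beyond G27 at 35.7%, between and nearer to M21 at 15% and beyond M21 at 11.4%. Over all tested genes these shares were 16.7%, 41.7%, 11.8% and 29.7%. The call used M21 and G27 alone, and a choice of genes that differ between them makes a position in between more frequent, so the shares are a description. At the 188 lower ribosomal genes of the eukaryotic type NC82 was between the lines and nearer to G27 at 142 (75.5%, against 46.9% of all genes called lower), and between and nearer to M21 at 31.

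The groups differed in this respect, and so did the directions. NC82 was beyond G27 at 42.5% of all genes called higher and at 29.9% of all genes called lower. NC82 was beyond G27 at 9 of 13 lower chaperonins, 8 of 12 lower aquaporins, 14 of 24 higher AP2/ERF factors and 20 of 31 higher pathogenesis-related genes. At the 13 lower HSP70 genes NC82 was nearer to M21 or beyond it at 9. Of all genes called lower, 12.9% had NC82 between the lines and nearer to M21 and 10.2% had it beyond M21. The 48 higher P450 genes were spread, with 14 beyond G27, 11 between and nearer G27, 12 between and nearer M21, and 11 beyond M21.

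**Figure D5:**
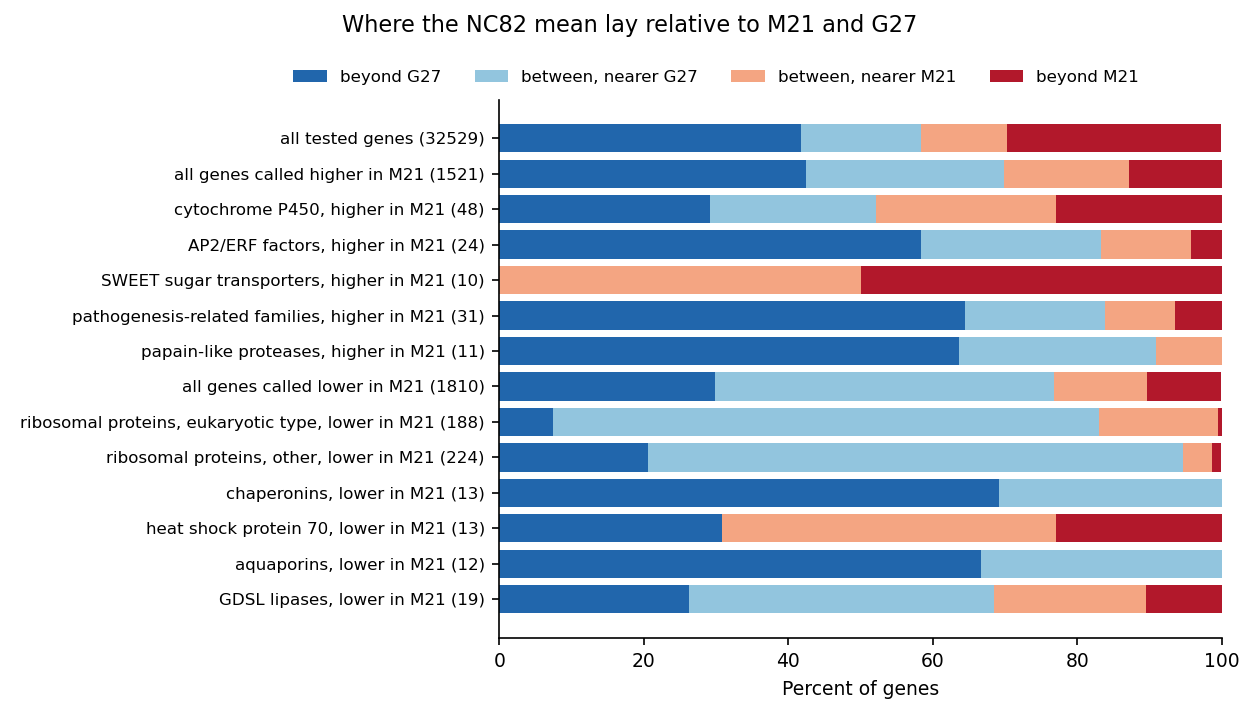
Percent of genes in 14 sets by where the NC82 mean lay on the log2(value + 1) scale: beyond G27, between the lines and nearer to G27 or M21, or beyond M21 (number of genes in brackets). Lower ribosomal genes lie mostly between the lines near G27, and all 10 higher SWEET genes lie on the M21 side.

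Photosynthesis genes were called about as often as all tested genes (10.2%). Chlorophyll a/b binding proteins had 6 of 86 genes higher and 4 lower (11.6% called), photosystem subunits 4 of 111 higher and 5 lower (8.11%), and enzymes of carbon fixation 4 of 82 higher and 3 lower (8.54%). Without M21 replicate 1 these pairs of counts were 2 and 1, 1 and 2, and 0 and 2. The photosystem II gene PsbR, Nitab4.5_0001791g0030, gave 46.2, 37.5 and 51.7 in M21 against 19.6, 22.1 and 22.1 in G27 (1.04, adjusted p = 0.001). Limma called none of 10 tested root and nicotine-pathway genes (2 at an unadjusted p under 0.05). Seed storage and LEA proteins, which protect drying cells, had 6 of 67 genes higher and 5 lower (16.4% called), with 3 higher without M21 replicate 1 and 1 lower without G27 replicate 2 or G27 replicate 3. Pollen and flower-bud genes were called more often, at 38.5% of the 39 that could be tested out of 78. Of these, 6 were higher in M21 and 9 lower, and 4 of each were called without M21 replicate 1. Their sum took 0.308% to 0.321% of the library in M21, 0.269% to 0.296% in G27 and 0.286% to 0.292% in NC82. That sum was higher in every M21 library than in any G27 library, and its part in the other results was not tested.

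Neighbours on a scaffold were counted by the order of the gene identifiers. Of 14860 neighbouring pairs with both genes tested, 100 were called in the same direction and 78 in opposite directions. Over all tested genes 4.68% were called higher and 5.56% lower, and how many pairs these shares alone would give was not computed. The longest runs of one direction held 3 genes. One, higher in M21, held the pollen Ole e 1 and extensin genes Nitab4.5_0000194g0050 and Nitab4.5_0000194g0060, the second with 325, 447 and 420 in M21 against 262, 172 and 159 in G27 (1.03, adjusted p = 0.0079), and an undescribed gene.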

How the data were processed

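RNA of young leaves was sequenced by the authors as paired-end libraries of total RNA, per the labels' protocols. HISAT2, StringTie and RSEM are named per the submitters' processing notes. Not given in the sources used here are their versions and roles, the genome build, annotation, strand setting and division of reads among copies. Values in the authors' deposited file are a normalized signal for each gene in each library, with no counts and no named unit; sums of 771390 to 790816 do not settle TPM or FPKM, and depth is unknown. Relative depths from low values were 0.91 to 1.09 of M21 replicate 1. The 3 group mean columns were not used.

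Genes with a value of 1 or more in at least 3 of 6 libraries were fitted on log2(value + 1) with limma 3.58.1 (R 4.3.3, empirical Bayes with a mean trend, two-sided, Benjamini-Hochberg over 32529 genes), which was tested on simulated data. The pseudocount of 1 shrinks differences of low genes. Figures used Python 3.11.15 and matplotlib 3.10.9.

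Groups of genes are word patterns on the deposited domain descriptions, 74 lists of which 73 had 5 or more tested genes. Members, lists and tests were chosen with earlier results of these data known. Patterns were corrected after the descriptions had been read, the pathogenesis-related list after counts had been seen, and 10 smaller lists were added then (SWEET, Dicer and Argonaute, DUF581 and papain-like proteins, beta-amylases and 5 subfamilies of the pathogenesis-related list). Lists are given by counts and medians, with no set test. Named genes were every tested SS18 and GRF gene, the called gene of smallest p per list and direction, the 10 largest differences per direction without overlap, and members of the 3 longest runs of neighbours (of 4 runs of equal length, those with the larger mean differences); others are marked. The main fit did not pair libraries by replicate number (correlations of deviations -0.038, 0.139 and -0.055 for libraries of the same number). Deviations within 3 libraries of a line depend on each other, so these values cannot decide whether the numbers mark pairs. Across numbers the correlations ran from -0.234 (M21 replicate 2 with G27 replicate 1) to 0.273 (M21 replicate 3 with G27 replicate 1). A factor shared by libraries of different numbers was not tested. The 15 alternatives covered samples, pseudocount, filter, scaling, trend, replicate block and left-out libraries.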

Additional observations from a re-analysis of the deposited data

How the results depend on the processing

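The number of called genes (3331) moved by over 1.5 times only when M21 replicate 1 (1611) or G27 replicate 3 (1978) was left out. Leaving out 1 library at a time gave 1611 to 2803 called genes, 706 to 1415 higher and 905 to 1388 lower in M21. Higher genes numbered 706 without M21 replicate 1, 1005 without M21 replicate 3 and 809 without G27 replicate 3, and lower genes 905, 1167 and 1169 without M21 replicate 1, M21 replicate 2 and G27 replicate 3. The replicate block gave 3560. Differences of 1 or more (245, 110 higher and 135 lower) numbered 508 at a pseudocount of 0.1 (236 higher, 272 lower) and 145 with a minimum value of 5 (67 higher, 78 lower), and 203 were lower at a pseudocount of 0.5. Of 2210 values of the 151 named genes under the alternatives, 2029 kept their side of the threshold, 175 lost it, 6 gained it and 0 changed direction; where calls were lost or gained the cause was not tested. The unknown read depth and the sharing of reads among gene copies limit all values, and at means under 2 the median coefficient of variation among the M21 libraries was 16.3%, against 5.5% at means of 50 to 100.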

Other observations

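The groups in this section were chosen after their values were seen and are given as counts. Blue copper proteins with a plastocyanin-like domain, many of them anchored at the cell surface, had 11 of 39 tested genes lower in M21 and 0 higher (median -0.23). Papain-like proteases, which degrade proteins in the vacuole and outside the cell, had 11 of 35 genes higher in M21 and 1 lower (median 0.23), and 5 higher without G27 replicate 3. Nitab4.5_0000681g0130 gave 52.4, 45.7 and 53.8 in M21, 22.4, 23.6 and 23.4 in G27 and 7.39 to 11.3 in NC82 (1.10, limma adjusted p = 0.00023), and the 3 genotypes did not overlap. Proteins of unknown function with the DUF581 domain had 10 of 24 genes higher and 1 lower (median 0.28), and 6 higher without M21 replicate 1 or G27 replicate 3. Beta-amylases, which release maltose from starch, had 7 of 19 genes higher and 0 lower, and 4 higher without M21 replicate 1, M21 replicate 3 or G27 replicate 3. Their median was 0, and 0.38 with a minimum value of 5.

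Among genes at 1 or more in all 3 libraries of a line and listed at 0 in all 3 of the other, 2 were in M21 and 3 in G27. Nitab4.5_0009396g0030, with no description, was at 2.82, 3.53 and 3.31 in G27, at 0 in M21, and at 0, 0 and 1.00 in NC82.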
